A study of Mus musculus with 6 samples.

Results

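The genes described here encode the lysosome's working parts: 11 cathepsins, 14 other hydrolases and their activator proteins, 5 proteins of the lysosomal membrane, 4 subunits of the proton pump, and the transcription factor Tfeb, 35 mouse genes in all. They were chosen by name for their function, and array probes were assigned to them by annotated gene symbol. Of the 45281 probes on the array, 75 carried the symbol of one of these genes, and 53 of those were detected well enough to be tested. Those 53 probes represented 29 of the 35 genes, out of 9144 genes tested. The genes Ctsc, Ctsh, Ctso, Gla and Tfeb had 11 probes in all, none of which was detected on any array, and no probe was annotated to Atp6v0c. Dexamethasone (DEX), a synthetic glucocorticoid, was given at 500 nM for 6 hours to 3 samples of 3T3-L1 adipocytes, and 3 samples received ethanol, the vehicle, for the same 6 hours. 3T3-L1 is a single mouse fibroblast-derived line that differentiates into fat cells in culture, and the study's methods describe differentiation with a cocktail that itself contained DEX, methylisobutylxanthine and insulin. The cells of both groups were kept in medium with stripped serum before and during treatment. Treatments were described as done in triplicate, without a statement that these were separate cultures, so the p-values rest on the variation among these 6 samples alone, and that variation could be technical.

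Lysosomes are acidic compartments in which proteins, glycans, lipids and glycogen delivered by endocytosis or autophagy are broken down. A vacuolar ATPase pumps protons into the lumen, and most of the enzymes work only at that low pH. Soluble enzymes are tagged with mannose 6-phosphate in the Golgi apparatus and carried to the lysosome by receptors, while heavily glycosylated membrane proteins line the organelle. Many of these genes share a short palindromic E-box near their start that is bound by Tfeb and its relatives. In fat cells lysosomes also take part in the breakdown of lipid droplets, with lysosomal acid lipase as the neutral lipid hydrolase of the compartment.

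Among the 29 tested lysosomal genes, 1 rose and 1 fell in DEX-treated cells at an adjusted p under 0.05, and 27 did not pass. The gene that rose was Ctsl, which encodes cathepsin L, a cysteine protease, and it was 2.62 fold higher. The gene that fell was Lipa, which encodes lysosomal acid lipase, and it was 1.54 fold lower. Each count is 3.45% of the tested lysosomal genes, against 4.52% of all 9144 tested genes that were higher (413 genes) and 3.06% that were lower (280 genes), so the shares were near those of the array as a whole. With samples of the same replicate number treated as pairs, the shares of all genes were 6.56% higher and 5.95% lower, and the calls of the lysosomal genes were the same. The median log2 fold change of the 29 genes was 0.00, with a range of -0.63 to 1.39, against a median of -0.06 over all tested genes. The 29 genes were brighter than the comparison set, with a median log2 signal of 10.23, against 7.89 for all tested genes. The shares and medians were not matched for signal. Of the 29 genes, 15 had a positive difference and 14 a negative one, where 42.3% of all tested genes were positive. That balance moved with the scaling and with single samples: 9 were positive and 20 negative when arrays were scaled to a common median, 21 and 8 without DEX-treated replicate 3, 12 and 17 without DEX-treated replicate 1, and 18 and 11 with array weights.

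**Figure D1:**
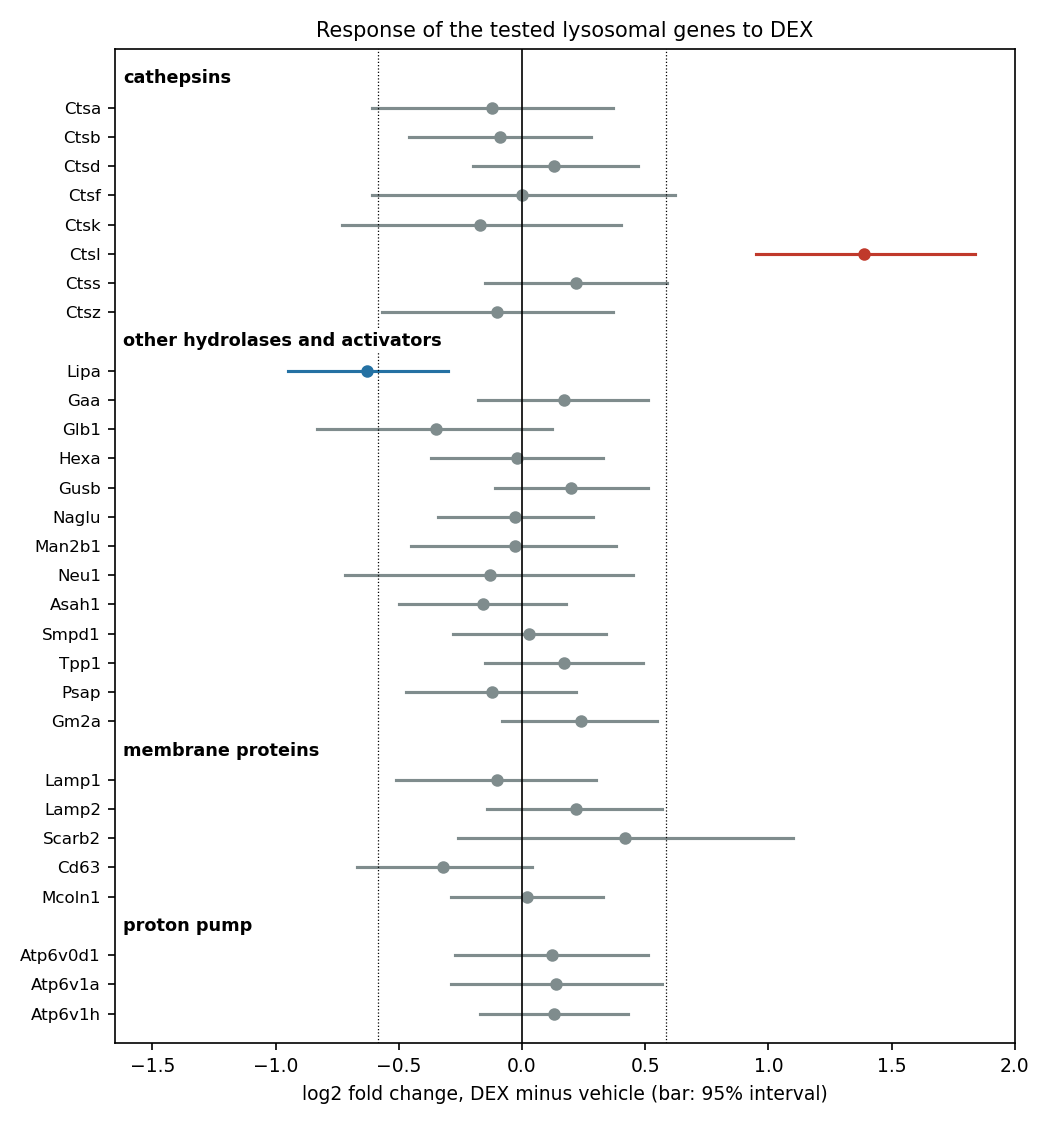
Log2 fold change, DEX minus vehicle, of the 29 tested lysosomal genes, by role, each by its probe with the highest mean signal. Points are estimates from 3 DEX-treated and 3 vehicle-treated samples, bars are 95% intervals, and the dotted lines mark 1.5 fold in either direction. Red marks the gene that rose (Ctsl), blue the gene that fell (Lipa), grey the 27 that did not pass. The 3 proton pump genes plot right of 0 here, and all 3 lay left of it when arrays were scaled to a common median.

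The difference in Ctsl was present on every array. Its single probe gave log2 signals of 7.45, 7.77 and 6.98 in DEX-treated samples, against 6.02, 5.95 and 6.06 in vehicle-treated samples. All 3 DEX-treated values lay above the highest vehicle-treated value, and DEX-treated replicate 3 was the nearest to it. The mean bead signals before any correction were 253, 265 and 196 in DEX-treated samples and 146, 129 and 145 in vehicle-treated samples. Means were 7.40 ± 0.39 with DEX and 6.01 ± 0.06 with vehicle (SD, n = 3 each), a log2 fold change of 1.39 with a standard error of 0.20 and a 95% interval of 0.95 to 1.84 (adjusted p = 0.00262). In the same-numbered samples the differences were 1.43, 1.82 and 0.93. The probe was dim, and the size of the change depended on the background removed, with a log2 fold change of 0.82 when no background was subtracted. The study listed Ctsl among potential primary targets of the glucocorticoid receptor, from these same arrays together with receptor binding regions found by sequencing. Its rise here is therefore not independent evidence of that direction, and receptor binding was not analysed here.

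The RefSeq window for Ctsl, 250 bases before to 50 bases after a start site on the mouse assembly GRCm38.p6, held a single match to the E-box letters CACGTG. The start site of that window lies 252 bases inside the outer end of the gene, so the E-box, 236 bases before it, lies within the annotated gene and not upstream of it. The 30 bases around the match, at chr13:64370739-64370768 on the minus strand, are shown because this is the gene that rose, with the E-box in capitals.
Ctsl: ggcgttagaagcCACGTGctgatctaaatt

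The other cathepsins did not pass the test. Ctsb, an abundant cysteine protease of most cells, had log2 signals of 13.92, 13.57 and 13.78 in DEX-treated samples, against 14.08, 13.75 and 13.73 in vehicle-treated samples. Those groups overlapped, with a log2 fold change of -0.09 ± 0.16 (SE, adjusted p = 0.805). Ctsd, the main aspartic protease of lysosomes, differed by 0.13, Ctsa, a carboxypeptidase that also protects sialidase and beta-galactosidase, by -0.12, and Ctsz, a carboxypeptidase, by -0.10. Ctsk, the collagen-degrading cysteine protease of osteoclasts, differed by -0.17 and Ctsf by 0.00. For both of these the DEX-treated samples spread widely, Ctsk at 8.91, 8.86 and 7.97 and Ctsf at 6.43, 6.00 and 5.36, against 8.98, 8.72 and 8.55 for Ctsk and 6.31, 5.70 and 5.76 for Ctsf in vehicle-treated samples. DEX-treated replicate 3 was the lowest sample for each. Ctss, a protease best known from antigen-presenting cells, was near the detection limit, with 2 DEX-treated and 1 vehicle-treated arrays above it, and differed by 0.22. Ctsc, Ctsh and Ctso were detected on none of the 6 arrays. Of the macrophage markers, 7 genes were named on the array, and 5 of those, among them the defining markers Adgre1, Csf1r and Ptprc, were detected on no array. Only 1 was detected well enough to be tested, at a mean log2 signal of 5.47, and its log2 fold change of -0.61 did not pass. The summed signal of the 7 marker genes was 51 to 83 in DEX-treated samples and 70 to 110 in vehicle-treated samples. These sums are of normalized linear values with the offset of 16 taken off each. With 5 of the 7 genes undetected, they cannot be read as a change in macrophage content. In whole-culture RNA a lower level per cell and fewer cells of a type cannot be told apart.

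**Figure D2:**
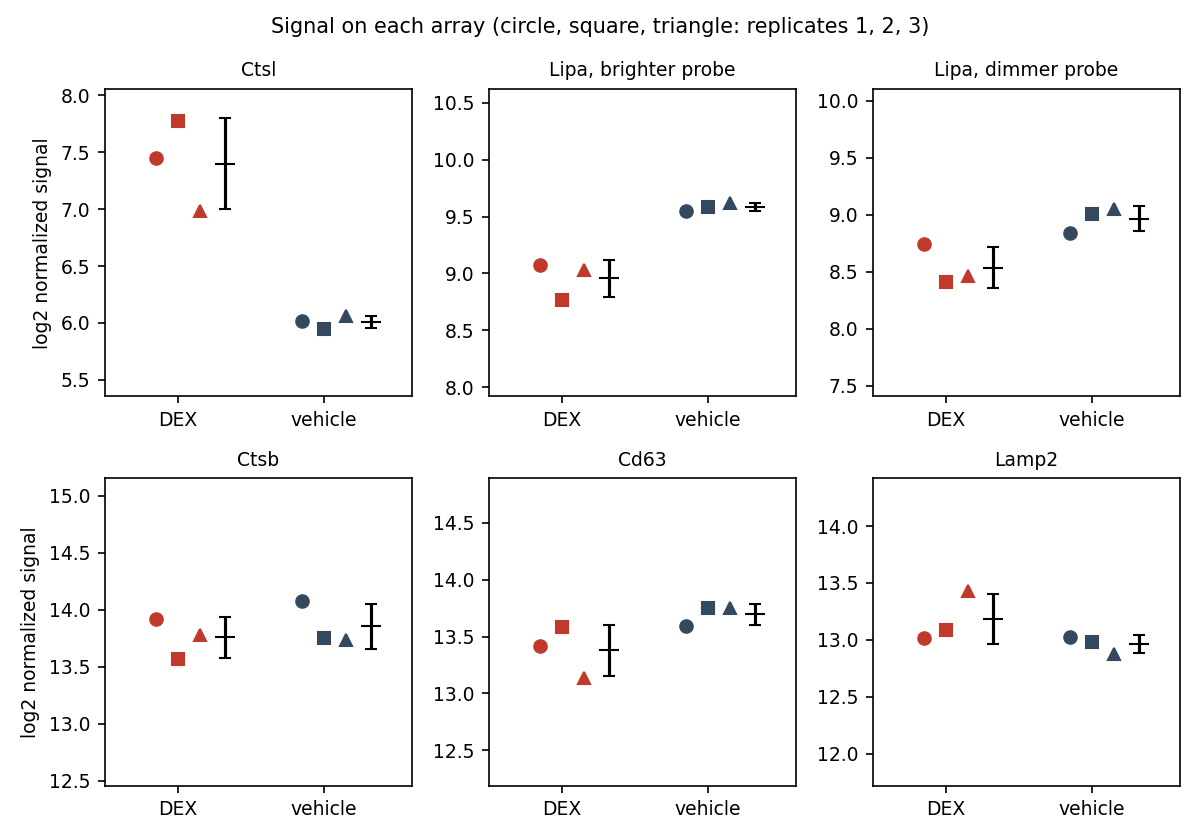
Log2 normalized signal on each array for Ctsl, for both probes of Lipa and for Ctsb, Cd63 and Lamp2, the 3 members with the highest signal among those that did not pass. Red points are DEX-treated and dark blue points vehicle-treated samples, and the cross bars give the mean and SD (n = 3 each). All panels span the same log2 height. In Ctsl the DEX-treated samples sit between 6.98 and 7.77, above the vehicle-treated samples at 5.95 to 6.06, and in the bright probe of Lipa they sit between 8.77 and 9.07, below 9.55 to 9.62.

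Lipa hydrolyses the cholesteryl esters and triglycerides that reach the lysosome. Its brighter probe gave log2 signals of 9.07, 8.77 and 9.03 in DEX-treated samples, against 9.55, 9.58 and 9.62 in vehicle-treated samples. The lowest vehicle-treated sample lay above the highest DEX-treated one. Means were 8.96 ± 0.16 with DEX and 9.58 ± 0.04 with vehicle (SD, n = 3 each), with a log2 fold change of -0.63 ± 0.14 (SE), a 95% interval of -0.95 to -0.30 and an adjusted p of 0.0316. A dimmer Lipa probe gave 8.74, 8.41 and 8.46 with DEX and 8.84, 9.01 and 9.05 with vehicle. These groups did not overlap either, and the log2 fold change of -0.43 did not pass (adjusted p = 0.139). The call of the brighter probe was lost when DEX-treated replicate 2 (adjusted p = 0.114), vehicle-treated replicate 1 (0.0821), replicate 2 (0.147) or replicate 3 (0.126) was left out, while the direction stayed. It held in the other 10 alternatives, with adjusted p from 0.003 to 0.0364.

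The 250 bases before the start of Lipa, at chr19:34527475-34527724 on the minus strand of GRCm38.p6, are shown because this is the gene that fell. Neither the E-box nor the glucocorticoid response element or its half-site matched here, so no letter is in capitals.
Lipa: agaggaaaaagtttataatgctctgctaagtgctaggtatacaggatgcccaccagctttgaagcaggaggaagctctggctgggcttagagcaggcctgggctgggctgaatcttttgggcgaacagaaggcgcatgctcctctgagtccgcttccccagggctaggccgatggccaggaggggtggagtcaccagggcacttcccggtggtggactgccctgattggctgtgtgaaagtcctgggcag

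The remaining 12 tested hydrolases and activators did not pass, and their log2 fold changes ran from -0.35 to 0.24. Glb1, the beta-galactosidase of lysosomes, had the lowest of these values. It measured 10.10, 10.03 and 9.55 in DEX-treated samples, against 10.60, 10.14 and 9.99 in vehicle-treated samples (adjusted p = 0.40). The groups overlapped, although each DEX-treated sample was below the vehicle-treated sample of the same number, by 0.50, 0.11 and 0.44. At the other end stood Gm2a, the activator that presents GM2 ganglioside to hexosaminidase, at 11.41, 11.35 and 11.43 with DEX and 11.03, 11.24 and 11.22 with vehicle. The groups of Gm2a did not overlap, but the difference of 0.24, with a standard error of 0.14, did not pass (adjusted p = 0.387). Gusb, beta-glucuronidase, was also apart between the groups, at 11.10, 10.93 and 11 with DEX and 10.82, 10.86 and 10.75 with vehicle, a log2 fold change of 0.20 (adjusted p = 0.46). The 3 other Gusb probes differed by 0.03 to 0.31.

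Among glycan-degrading enzymes, Gaa, the acid alpha-glucosidase that degrades glycogen, differed by 0.17, Naglu, which acts on heparan sulfate, by -0.03, and Man2b1, the alpha-mannosidase, by -0.03. Hexa, a subunit of beta-hexosaminidase, differed by -0.02. Neu1, the lysosomal sialidase, differed by -0.13 and had a wide spread in DEX-treated samples, 10.94, 10.29 and 9.84, against 10.76, 10.32 and 10.39 in vehicle-treated samples. The sphingolipid enzymes Smpd1, acid sphingomyelinase, and Asah1, acid ceramidase, differed by 0.03 and -0.16, and Psap, the precursor of the saposin activators, by -0.12. Tpp1, a serine peptidase, differed by 0.17. In all of these the DEX-treated and vehicle-treated values overlapped by the probe with the highest mean signal. A dimmer Asah1 probe had groups apart, and its log2 fold change of -0.25 did not pass (adjusted p = 0.397).

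None of the 5 membrane genes passed, and their median log2 fold change was 0.02. Cd63, a tetraspanin of late endosomes and lysosomes, gave 13.42, 13.58 and 13.14 in DEX-treated samples, against 13.59, 13.75 and 13.75 in vehicle-treated samples. The DEX-treated values lay just below all vehicle-treated ones, but the difference of -0.32 did not pass (adjusted p = 0.303, the smallest of the 27 genes). Another Cd63 probe differed by -0.29 and the third by 0.14. Lamp2, a major glycoprotein of the lysosomal membrane, gave 13.02, 13.09 and 13.43 with DEX and 13.03, 12.98 and 12.88 with vehicle, a log2 fold change of 0.22 (adjusted p = 0.493). The groups of Lamp2 overlapped only at DEX-treated replicate 1, and its 6 tested probes differed by 0.00 to 0.38. Lamp1, its close relative, differed by -0.10 and Mcoln1, the calcium channel mucolipin 1, by 0.02.

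Scarb2, which carries glucocerebrosidase to the lysosome, had a log2 fold change that depended strongly on single samples in the fit without pairing. It measured 10.56, 9.96 and 9.54 in DEX-treated samples, against 10.18, 9.42 and 9.19 in vehicle-treated samples, a log2 fold change of 0.42 ± 0.30 (SE, adjusted p = 0.492). The spread within each group was larger than the difference between them, and without 1 sample the log2 fold change was 0.15 to 0.71, lowest without DEX-treated replicate 1 and highest without vehicle-treated replicate 1. Within the same replicate number the difference was steadier, at 0.37, 0.54 and 0.35, and the fit with pairing did not pass either (adjusted p = 0.0836). Its second probe, on which DEX-treated samples measured 7.0, 6.44 and 7.17 and vehicle-treated samples 6.56, 6.13 and 5.75, differed by 0.72 (adjusted p = 0.124).

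The proton pump had 3 tested genes, and none passed. Atp6v1a, a catalytic subunit of the cytosolic sector, differed by 0.14, Atp6v1h, a regulatory subunit of the same sector, by 0.13 and Atp6v0d1, which links the sectors of the pump, by 0.12, and all 3 differences turned negative, at -0.03, -0.04 and -0.05, when arrays were scaled to a common median. Atp6v1h gave 10.97, 10.99 and 11 in DEX-treated samples, against 10.82, 10.92 and 10.82 in vehicle-treated samples (adjusted p = 0.631). Those groups did not overlap, although the difference was small. The 4 Atp6v0d1 probes differed by 0.12 to 0.18. In Atp6v1a, DEX-treated replicate 3 was high, at 11.39 beside 10.82 and 10.69, against 10.84, 10.81 and 10.83 in vehicle-treated samples.

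Across all 29 genes, each by its probe with the highest mean signal, the samples did not overlap in 6. Ctsl, Gusb, Gm2a and Atp6v1h were higher and Lipa and Cd63 lower in DEX-treated cells. These are 13.8% and 6.9% of the tested lysosomal genes, against 12.2% and 15.7% of all tested genes. Among genes not counted here, dimmer probes were apart in Lamp2 (log2 fold changes of 0.32 and 0.27), Atp6v0d1 (0.18) and Asah1 (-0.25). None of those probes passed. In 6 genes every DEX-treated sample was above the vehicle-treated sample of the same number (20.7%, against 20.3% of all genes), and in 6 every one was below (20.7%, against 30.1%). For 19 of the 27 genes that did not pass, the 95% interval lay within 1.5 fold in both directions, and for 26 it lay within 2 fold. The lowest lower bound was -0.83, for Glb1, and the highest upper bound was 1.10, for Scarb2.

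**Figure D3:**
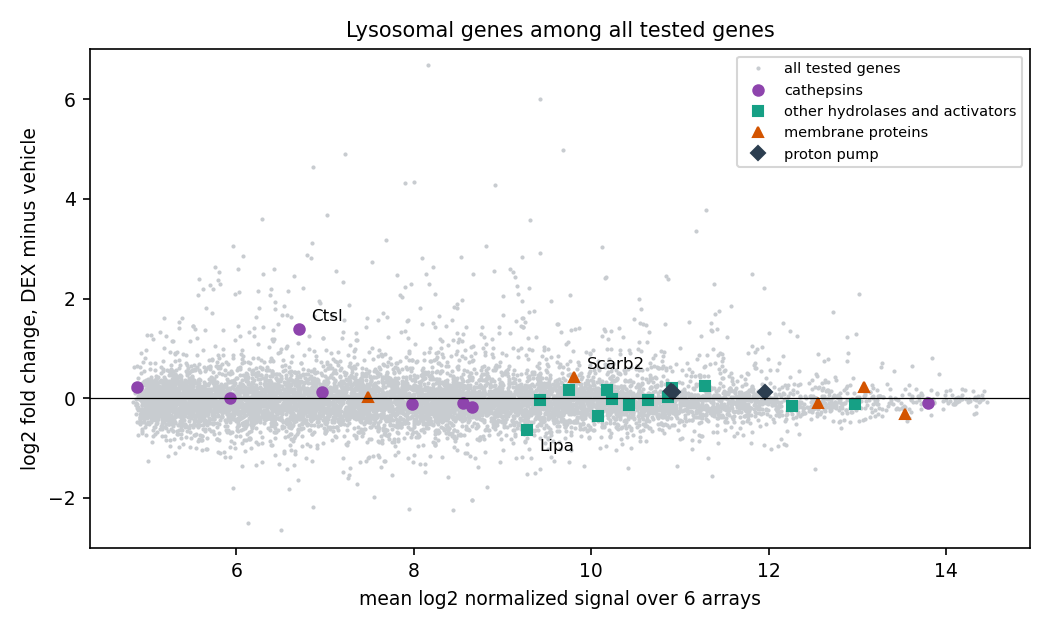
Log2 fold change, DEX minus vehicle, against the mean log2 normalized signal over 6 arrays. Grey points are the 9144 tested genes and coloured symbols the 29 lysosomal genes by role. Apart from Ctsl at 1.39 and Lipa at -0.63, the lysosomal genes lie between -0.35 and 0.42. Signals of different probes are not comparable as transcript levels, and the small positive differences of the 3 pump genes turned negative when arrays were scaled to a common median.

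Agreement between probes of a gene could be examined for 13 genes with more than 1 tested probe. In 10 of them all probes had the same sign, and the exceptions were Ctsa, Smpd1 and Cd63. Only 2 of the 53 tested probes passed, those of Ctsl and the brighter Lipa probe, against 4.25% of all 16317 tested probes that were higher and 2.55% that were lower. Ctsl had 1 probe on the array and could not be checked in this way.

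**Figure D4:**
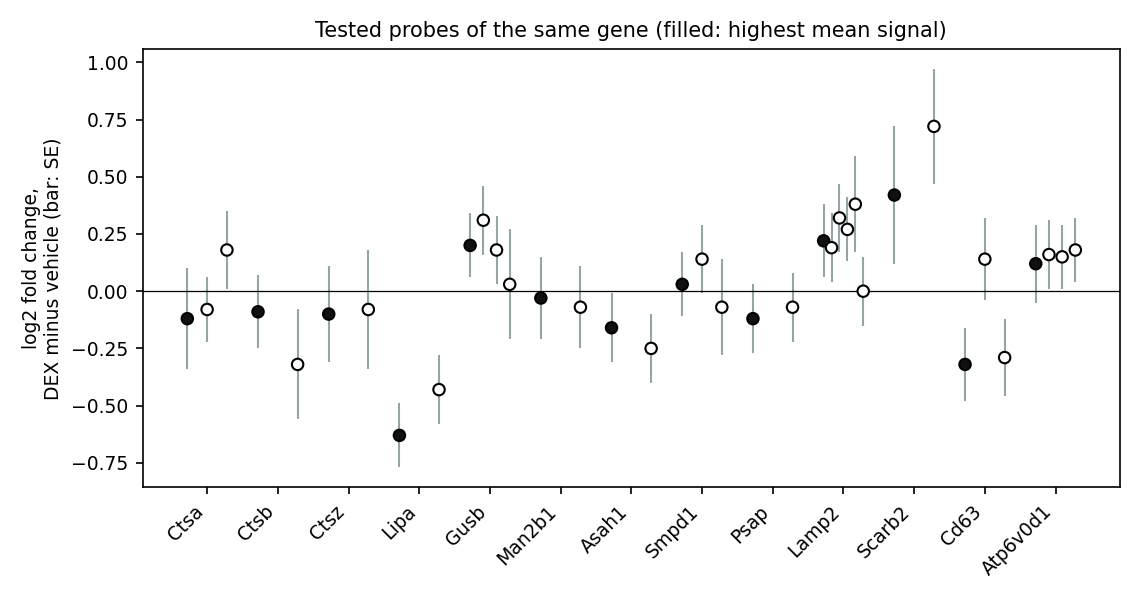
Log2 fold change, DEX minus vehicle, of each tested probe for the 13 lysosomal genes with more than 1. Filled points are the probe with the highest mean signal, open points the others, and bars are standard errors. Both Lipa probes are negative, at -0.63 and -0.43, and both Scarb2 probes positive, at 0.42 and 0.72.

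The genes were chosen by name and not by their sequence. The E-box searched for is already known from many lysosomal genes, so a higher share here is not an independent finding. It was found in a RefSeq window of 12 of the genes. For Ctsl and Atp6v1a the match lies before a start site but within the annotated gene. RefSeq windows of GRCm38.p6, 250 bases before to 50 bases after a start site, were found for 31 of the 35 genes. Of these, 24 had a window with its start site at the outer end of the gene. The other 7 had start sites only inside it. The E-box CACGTG, which reads the same on both strands, was present in windows of 12 of these 31 genes (38.7%), against 8.09% of 27025 genes with a window. The extended form TCACGTGA, which contains the shorter one and also reads the same on both strands, was present in 6 (19.4%), against 1.12% of all genes. These were Ctsa, Ctsd, Gla, Mcoln1, Atp6v0d1 and Atp6v1a. The other genes with an E-box were Ctsf, Ctsl, Gaa, Glb1, Naglu and Lamp1, which had 4 matches. Of the 19 E-boxes, 17 lay before the start site of their window and 11 of those within 100 bases of it. The glucocorticoid response element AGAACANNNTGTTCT, where N is any base and which is a palindrome, was in none of the 31 genes and in 0.0111% of all genes. Its half-site AGAACA, searched on both strands, was in 7 (22.6%), against 21.3% of all genes. A match is a description of the letters in these windows, and factor binding was not analysed here.

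Examples of the extended E-box with 11 bases on each side are shown with the match in capitals, along with the stretch of Lamp1 that holds all 4 of its E-boxes. They are on GRCm38.p6 at chr7:142387908-142387937 (minus strand, Ctsd), chrX:134601182-134601211 (minus, Gla), chr8:3500462-3500491 (plus, Mcoln1), chr16:44139373-44139402 (minus, Atp6v1a, whose window starts inside the gene) and chr8:13159096-13159155 (plus, Lamp1).
Ctsd: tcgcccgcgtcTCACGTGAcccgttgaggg
Gla: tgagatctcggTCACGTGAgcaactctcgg
Mcoln1: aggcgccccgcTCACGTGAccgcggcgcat
Atp6v1a: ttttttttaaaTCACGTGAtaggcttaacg
Lamp1: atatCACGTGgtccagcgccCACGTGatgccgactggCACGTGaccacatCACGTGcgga

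Tested genes with an E-box had values on both sides of 0. The 11 tested genes with an E-box had a median log2 fold change of 0.02, with 1 gene higher (Ctsl) and a range of -0.35 to 1.39. The 15 tested genes with a window and no E-box had a median of -0.02, with 1 gene lower (Lipa) and a range of -0.63 to 0.42. Of the genes with sites in capitals, Gla was not tested, Ctsl rose, and Ctsd differed by 0.13, Mcoln1 by 0.02, Atp6v1a by 0.14 and Lamp1 by -0.10.

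**Figure D5:**
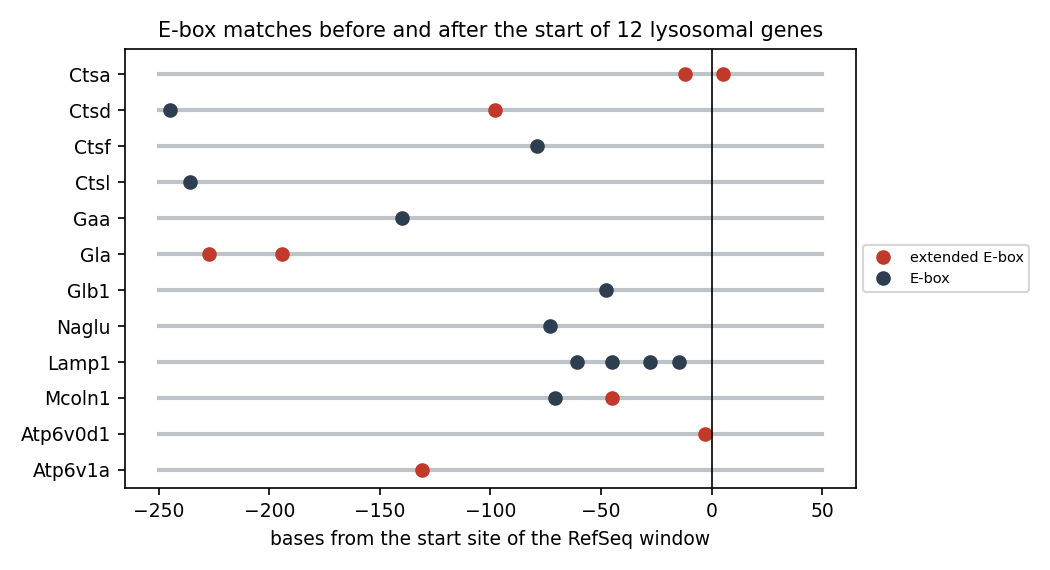
Position of E-box matches in the RefSeq windows of the 12 lysosomal genes that hold one, in bases from the start site of the window. Red points are extended E-boxes and dark points the shorter form, and grey lines are the windows. The 4 matches of Lamp1 lie before its start, and the match of Ctsl lies 236 bases before a start site that is itself inside the gene.

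Of 6 further lists of lysosomal genes, with 80 genes of which 63 were tested, 1 gene rose and 1 fell by their probes with the highest mean signal. Each is 1.59% of the tested genes, against 4.52% of all tested genes that were higher and 3.06% that were lower. The gene that rose was Ostm1, a partner of the chloride and proton exchanger ClC-7 in the lysosomal membrane and 1 of 12 further membrane genes tested. It gave 9.75, 9.93 and 9.76 in DEX-treated samples, against 8.98, 8.86 and 8.71 in vehicle-treated samples. The groups were well apart, at 1.95 fold higher, a log2 fold change of 0.97 ± 0.14 (SE, adjusted p = 0.00351). The gene that fell was Gnptab, which encodes subunits of the enzyme that begins the mannose 6-phosphate tag, and 1 of 9 sorting genes tested. It gave 7.67, 7.57 and 7.68 with DEX and 8.32, 8.30 and 8.17 with vehicle, 1.54 fold lower (adjusted p = 0.0252). The Gnptab call was lost without DEX-treated replicate 2 (adjusted p = 0.0952) or vehicle-treated replicate 1 (0.0884), replicate 2 (0.145) or replicate 3 (0.0707), while its log2 fold change stayed at -0.67 to -0.59 over the 6 fits with 1 sample left out. None of the 13 other pump subunits, 19 further lysosomal enzymes, 2 cystatins and 8 genes of the Tfeb family and of mTORC1 docking passed by its brightest probe, and Ppt2, a thioesterase, was the 1 gene that passed only with replicate pairing (log2 fold change of -0.52, adjusted p = 0.0405 with pairing and 0.211 without). The probes of Sgsh, a sulfatase that acts on heparan sulfate, disagreed. Its dimmer probe gave 6.18, 6.67 and 6.75 in DEX-treated samples, against 5.35, 5.38 and 5.23 in vehicle-treated samples, and passed with a log2 fold change of 1.21 (adjusted p = 0.00306). Its brighter probe, by which the gene was counted, gave 6.53, 6.71 and 6.76 with DEX and 7.07, 7.02 and 6.73 with vehicle, a difference of -0.27 that did not pass (adjusted p = 0.364). The direction of Sgsh was therefore not settled by these arrays.

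The arrays had 15983 to 16523 probes detected in DEX-treated samples and 15800 to 16512 in vehicle-treated samples. The summed bead signal before normalization was 15317495 to 17021745 with DEX and 16580938 to 18118784 with vehicle, and was lower with DEX in each same-numbered pair. Genes known to respond to glucocorticoids were higher in DEX-treated samples, 5 of 5 of them, against 4.52% of all tested genes. Fkbp5 had a log2 fold change of 6.01. Tsc22d3 and Sgk1, also among the 5, are potential targets that the study named partly from these same arrays, so their rise is not independent evidence. Of 6 adipocyte markers 1 fell, the lipid droplet protein Plin1 at -1.03, and their summed linear signal was 45925 to 52199 with DEX and 42361 to 45085 with vehicle. Of 4 preadipocyte markers 3 were tested, and none passed without replicate pairing. With pairing Pdgfra was higher (log2 fold change of 0.63, adjusted p = 0.0364 with pairing and 0.051 without). The summed signal of these markers was 14680 to 19471 with DEX and 16670 to 18457 with vehicle, and Dlk1, a defining preadipocyte marker, was bright on all arrays. The part of the signal sums and markers in the results of the lysosomal genes was not tested.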

How the data were processed

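RNA from 3 DEX-treated and 3 vehicle-treated samples was hybridized to MouseWG-6 BeadChips. The deposited values were the bead signal of each probe, a linear intensity that the authors had not normalized, each deposited with a detection p-value of the probe. A second deposited table held intensity after the authors' lumi steps, and served as an alternative. The lumi options were not given in the sources used here. Signals were background-corrected by normexp using the detection p-values (offset 16), quantile-normalized, taken to log2 and fitted with limma 3.58.1 (R 4.3.3), with two-sided tests. Tables and plots used Python 3.11.15, pandas 2.3.3, numpy 2.4.6 and matplotlib 3.10.9. The 16317 probes detected at p under 0.05 in 3 or more of 6 arrays were tested, and Benjamini-Hochberg adjustment ran over all of them. Folds of dim probes are compressed by the offset, and quantile normalization makes the signal distributions of all arrays alike. A gene was judged by its probe with the highest mean signal. Of all probes, 34885 carry 1 gene symbol, 18 several and 10378 none, and 34807 were matched to RefSeq by gene ID. No single value was tested by permutation, since 3 against 3 cannot give an exact p under 0.1. Members, lists and tests were chosen with earlier results of these data known. Every member was named, with array values for those that passed, those whose probes disagreed in call and the 3 brightest others. From further lists, up to 3 genes that passed were named, and Ppt2, Sgsh, Pdgfra and the array values of other members were chosen after they were seen. Replicate numbers come from the labels, and same-numbered DEX and vehicle samples deviated together (correlations of 0.44, 0.30 and 0.25), so the numbers were taken as pairs in an alternative fit. The fit was tested on simulated data, where it recovered 16% of 50 changes of 1.5 fold and 88% of 50 changes of 2 fold. Most changes of 1.5 fold would thus be missed. Alternatives changed the scaling, background correction, filter, offset, array weights and pairing, or left out each sample in turn.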

Additional observations from a re-analysis of the deposited data

How the results depend on the processing

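The precision is limited by 3 arrays per group, and dim probes are compressed by the offset. The calls of the lysosomal genes were recomputed under 14 alternatives. Ctsl passed in all 14, with adjusted p from 5.26e-05 to 0.0278, and the 27 other genes apart from Lipa passed in none, although Ctss was not tested where detection on all 6 arrays was required. The count higher was 1 throughout, and the count lower was 0 to 1 when single samples were left out.

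With the replicate block, which pairs samples by number, 1027 probes were higher and 843 lower over all probes, against 693 and 416 without it, and none of the 29 tested lysosomal genes changed its call. Array weights ran from 0.28 for DEX-treated replicate 3 to 3.34 for vehicle-treated replicate 2, and with them the counts were 1388 and 1376. With scaling to a common median they were 587 and 667, where 46.8% of calls were higher against 62.5%. Without 1 sample, 399 to 779 probes were higher and 127 to 521 lower, and the median of the lysosomal genes was -0.02 to 0.08. The median was -0.14 with median scaling, which moved the median of all probes to -0.127, against -0.044.

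Some small differences changed sign. With array weights Ctsk gave 0.07, Hexa 0.11, Man2b1 0.10, Lamp1 0.01 and Atp6v1a -0.03. With median scaling Ctsf gave -0.03, Smpd1 -0.14, Mcoln1 -0.08, Atp6v0d1 -0.05, Atp6v1a -0.03 and Atp6v1h -0.04. Leaving out 1 sample gave -0.35 to 0.02 for Ctsa, -0.18 to 0.02 for Ctsb, -0.25 to 0.29 for Ctsf, -0.33 to 0.14 for Ctsk, -0.28 to 0.04 for Ctsz, -0.14 to 0.08 for Hexa, -0.08 to 0.02 for Naglu, -0.13 to 0.11 for Man2b1, -0.42 to 0.13 for Neu1, -0.02 to 0.07 for Smpd1, -0.20 to 0.06 for Lamp1, -0.01 to 0.08 for Mcoln1, -0.02 to 0.22 for Atp6v0d1 and -0.07 to 0.28 for Atp6v1a. Lipa gave -0.68 to -0.54 and Scarb2 0.15 to 0.71. The cause of these changes was not tested.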
